A study of Homo sapiens with 18 samples.

Results

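The response of wildtype HEK293 cells to isoproterenol is described here from 6 of the 18 samples of the series, 3 vehicle (basal) and 3 isoproterenol libraries, which were chosen by their labels alone. HEK293 is an established human embryonic kidney line. All cells, in every group, had been transfected with a plasmid for the wildtype β2-adrenergic receptor (β2AR) and serum starved overnight, and 48 h after transfection they received 1 μM isoproterenol, a β-adrenergic agonist, or vehicle for 1 h. For comparison, the same 2 treatments were given to Gαs KO cells (6 samples) and to β-arrestin1/2 KO cells (6 samples), HEK293 derivatives edited with CRISPR–Cas9. The comparison asked which genes change within 1 h of receptor stimulation in unedited cells. Expected counts were summed to genes, 15530 of 34287 genes were tested, and 6 widely followed target genes (PCK1, DUSP1, FOS, FOSL2, JUNB and DUSP5) are counted in the totals but not described.

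β2AR couples to the stimulatory G protein Gs, whose α subunit activates adenylyl cyclase. The cAMP formed releases the catalytic subunits of protein kinase A (PKA), which phosphorylate the transcription factor CREB. CREB binds cAMP-response elements (CREs) in promoters, so that cAMP induces a first wave of genes without new protein synthesis, many of them transcription factors, phosphatases and other short-lived regulators. β-arrestins bind the phosphorylated receptor, uncouple it from Gs and drive its internalization.

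The wildtype libraries held 18857678 to 21597977 expected counts. Normalized counts, used throughout, are counts scaled to a common library size by edgeR's TMM method. Genes known from HEK293 cells were detected, such as the intermediate filament genes VIM, KRT8 and KRT18 (4785 to 20011 normalized counts in each library) and NEFL (1663 to 2060), and none of the 8 listed was called. Of 12 markers of other cells, 10 were in the file and 4 could be tested, with none called. Those 4 were COL1A1, a collagen gene (541 to 906 normalized counts in a library), VWF (61.9 to 139), LYZ (18.7 to 42.5) and CDH1 (10.4 to 55.8), while PTPRC, ALB, PECAM1, COL1A2, DCN and EPCAM had at most 6.7. The summed level of the 10 markers was 683 to 1077 normalized counts at basal and 699 to 820 with isoproterenol. Basal replicate 1 stood apart. The mean GC content of the transcripts it counted was 52.49%, against 49.15 to 49.76% in the other 5 wildtype libraries. Ribosomal protein genes took 10.5% of its counts, against 7.56 to 8.31% in the others. The calls, fold changes and list medians below were therefore also computed without it, as were the promoter and structure summaries.

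Isoproterenol changed 72 genes at an adjusted p under 0.05 by edgeR's quasi-likelihood test, 64 of them higher (0.412% of the genes tested) and 8 lower (0.0515%). The genes that rose had a median log2 fold change of 0.87, the lowest being 0.42, and 26 rose at least by 1 on the log2 scale. Those that fell had a median of -0.66. In each of the 72 genes the 3 isoproterenol libraries lay beyond all 3 basal libraries, as they did, higher, in 4.85% and, lower, in 4.17% of all genes tested. The median log2 fold change over all genes was -0.0021. Offsets that correct each library for GC content and transcript length gave 159 higher and 67 lower, a less one-sided split. Without basal replicate 1, 133 genes were higher (0.843% of 15785) and 43 lower (0.272%), and they included 71 of the 72. A fit to the 6 wildtype libraries alone called 13 genes, and 12 of these were among the 72. The same fit without basal replicate 1 called 73 higher and 15 lower, and 54 of the 72 were called in it.

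**Figure D1:**
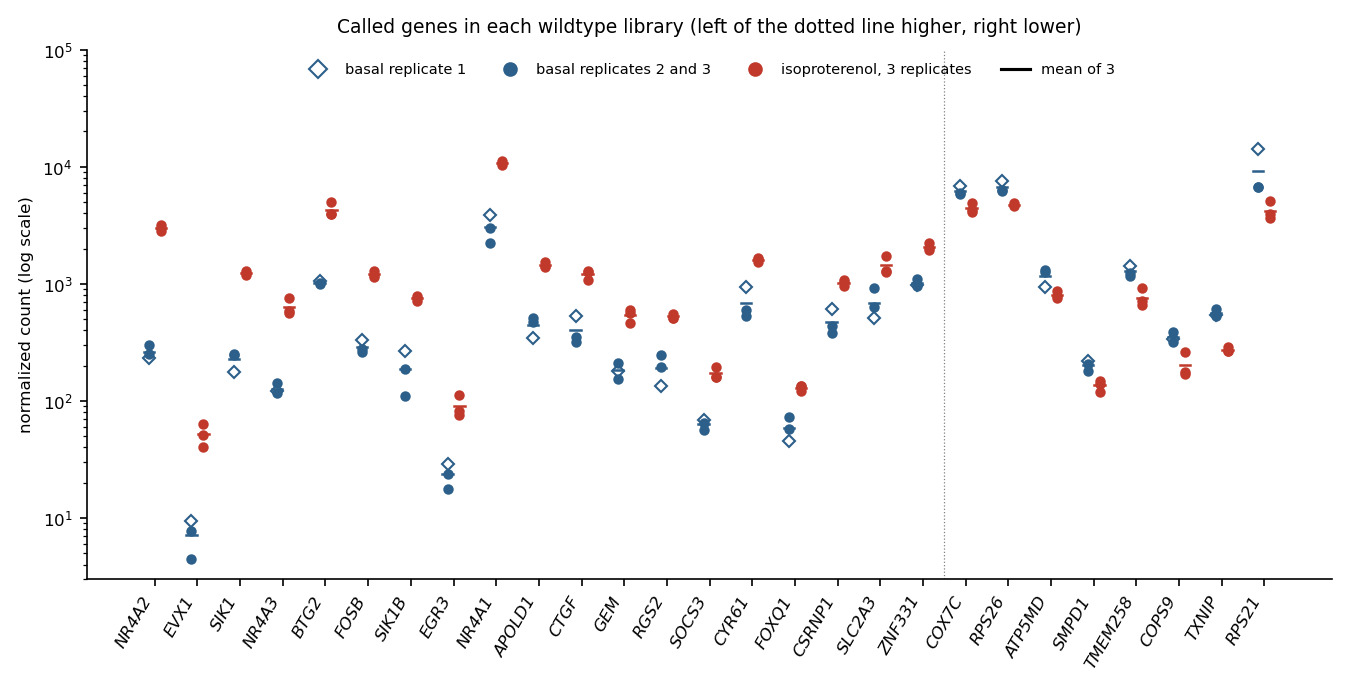
Normalized counts (log axis) of 19 genes called higher, in order of fold change, and of the 8 called lower, in each of the 6 wildtype libraries, with short lines for the means of 3 and an open diamond for basal replicate 1. In every gene shown the 3 isoproterenol points lie on one side of the 3 basal points, and RPS21 has its highest point, 14126, in basal replicate 1.

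The NR4A orphan nuclear receptors, transcription factors that need no known ligand and are classical products of the cAMP pathway, all rose. NR4A2 (Nurr1; chromosome 2, 156324432 to 156342348 of GRCh38) had 232, 253 and 298 normalized counts in the basal libraries and 3149, 2809 and 2997 in the isoproterenol libraries. All basal libraries were far below all stimulated ones, and the mean rose 11.4-fold (3.52 on the log2 scale with a standard error of 0.13, edgeR adjusted p = 1.2e-10). NR4A3 (NOR1; chromosome 9, 99821855 to 99866891) went from 122, 117 and 141 to 749, 565 and 585 normalized counts (log2 fold change 2.32, standard error 0.23, adjusted p = 2.3e-05). NR4A1 (Nur77; chromosome 12, 52022832 to 52059507) started from a higher level, 3886, 2219 and 2976, and reached 10768, 10316 and 11267 normalized counts. Its log2 fold change was 1.83 (standard error 0.15, adjusted p = 2.7e-06, same test), and 2.05 without basal replicate 1, the highest of the basal values. The 3 paralogs thus rose together, in the order NR4A2, NR4A3 and NR4A1 by fold change, and NR4A1 had the highest count in each library.

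The NR4A genes belong to a list of 42 immediate-early and CREB-target transcription factors, of which 39 were tested, 15 rose and none fell, while 37 had a positive log2 fold change. Over all genes tested, 0.412% rose, 0.0515% fell and 49.6% had a positive value. This list and those below were chosen with earlier results of these data known, so their counts are descriptions. The median over the list was 0.50, against -0.0021 over all genes, and 0.55 without basal replicate 1, when 21 members were called higher. FOSB, an AP-1 subunit, had 330, 279 and 260 normalized counts at basal and 1277, 1133 and 1198 with isoproterenol (log2 fold change 2.05, standard error 0.13, adjusted p = 6.5e-08, edgeR). EGR3, a zinc-finger factor of the EGR family, was scarce, with 29.2, 17.8 and 23.5 normalized counts at basal and 112, 76.0 and 82.5 with isoproterenol (log2 fold change 1.93, adjusted p = 0.00099, same test). CSRNP1, a nuclear protein first known as an AXIN1-induced gene, rose by 1.11 on the log2 scale. ATF3, a stress-induced bZIP factor, was already abundant at 1843 ± 153 normalized counts and reached 3405 ± 23.6 (mean ± SD, n = 3; log2 fold change 0.89, adjusted p = 7.7e-06, edgeR). Smaller rises were seen for IER3 (0.97), the bZIP repressor NFIL3 (0.79), the small MAF protein MAFK (0.65), the helix-loop-helix inhibitor ID2 (0.52) and KLF9 (0.50). MAFK was the weakest of these: it was called in the full model at an adjusted p of 0.0498 and was not called without basal replicate 2 or 3 or any 1 of the isoproterenol replicates (adjusted p from 0.069 to 0.21, edgeR). NFIL3 was not called without any 1 of the isoproterenol replicates (adjusted p from 0.06 to 0.12), nor IER3 without basal replicate 3 or isoproterenol replicate 1 (adjusted p = 0.053 and 0.063).

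The most abundant members that were not called were MYC, JUND, ID4 and JUN. JUN had 1216, 2805 and 2299 normalized counts at basal and 3287, 3446 and 3315 with isoproterenol, so that its groups did not overlap, but basal replicate 1 was less than the other basal values by a wide margin (log2 fold change 0.67, adjusted p = 0.27; 0.39 and adjusted p = 0.15 without that library, edgeR). JUND had log2 fold changes of 0.35 (adjusted p = 0.1) with all libraries and 0.46 (adjusted p = 0.00013) without basal replicate 1. MYC had -0.29 (adjusted p = 0.32) and ID4 0.37 (adjusted p = 0.38). IER2 and KLF4, chosen after their values were seen, had 0.52 and 0.49 (adjusted p = 0.088 and 0.054), and both were called without basal replicate 1, at 0.72 and 0.59.

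Because CREB acts through CREs, the sequences upstream of some of the genes that rose are shown. They come from RefSeq (GRCh38.p14), each being the 250 bases before the annotated start that lies nearest to the start of the gene's most abundant transcript, read 5′ to 3′ on the gene's strand, in lower case with every match to the CRE core (TGACG, or CGTCA on the other strand) in capitals. NR4A3 (chr9:99821635-99821884, plus strand) has 4 matches in this stretch, SIK1 (chr21:43427132-43427381, minus strand) 3, EVX1 (chr7:27242552-27242801, plus strand) 2 and FOSB (chr19:45467746-45467995, plus strand) 1. For ZNF331 the stretch before the start of the transcript that gained the most counts is shown (chr19:53554577-53554826, plus strand), with 4 matches. The window at the start nearest to that of its most abundant transcript held 1. Each sequence shown has a match, but the windows of CTGF, FOXQ1, ARHGAP6 and NR4A1, which also rose, held none. NR4A2 had no window.
NR4A3: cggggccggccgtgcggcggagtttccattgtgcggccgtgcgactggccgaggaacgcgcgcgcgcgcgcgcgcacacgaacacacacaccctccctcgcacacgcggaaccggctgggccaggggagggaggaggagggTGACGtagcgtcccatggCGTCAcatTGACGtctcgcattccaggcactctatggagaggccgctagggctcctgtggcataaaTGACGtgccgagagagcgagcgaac
SIK1: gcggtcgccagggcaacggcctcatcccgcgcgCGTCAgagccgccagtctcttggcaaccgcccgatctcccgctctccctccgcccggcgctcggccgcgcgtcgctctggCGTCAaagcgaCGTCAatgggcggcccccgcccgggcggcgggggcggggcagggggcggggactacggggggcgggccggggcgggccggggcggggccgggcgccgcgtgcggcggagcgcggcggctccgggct
EVX1: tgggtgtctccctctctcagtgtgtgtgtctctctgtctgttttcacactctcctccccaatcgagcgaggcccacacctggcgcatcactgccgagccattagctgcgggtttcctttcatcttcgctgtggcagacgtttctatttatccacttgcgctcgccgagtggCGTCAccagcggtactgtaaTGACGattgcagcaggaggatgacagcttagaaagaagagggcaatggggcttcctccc
FOSB: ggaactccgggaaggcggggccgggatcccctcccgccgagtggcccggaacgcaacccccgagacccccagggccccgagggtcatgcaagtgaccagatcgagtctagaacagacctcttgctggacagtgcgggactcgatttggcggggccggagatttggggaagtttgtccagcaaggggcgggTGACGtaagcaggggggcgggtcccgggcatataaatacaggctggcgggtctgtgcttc
ZNF331: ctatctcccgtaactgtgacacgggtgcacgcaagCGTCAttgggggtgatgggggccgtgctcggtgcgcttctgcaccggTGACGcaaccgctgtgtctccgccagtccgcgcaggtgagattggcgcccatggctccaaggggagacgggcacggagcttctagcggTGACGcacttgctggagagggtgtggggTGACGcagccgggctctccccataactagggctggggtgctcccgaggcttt

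Windows of 300 bases, 250 before and 50 after the start, were at hand for 46 of the 64 genes that rose, and among these 65.2% held a CRE core. The share was 33.4% over the 11612 tested genes with a window and 24.6% over all 35116 windows. At least 2 CRE cores were found in 28.3% of the genes that rose and in 9.6% of all tested genes. Of the 18 genes with a window that rose by 1 or more on the log2 scale, 14 held a CRE core, and of the 28 with smaller changes 16 did. The full palindromic CRE, in which a core on each strand overlaps the other, was rarer: 4 of the 46 windows and 3.14% of all tested genes had it. The AP-1 motif (TGANTCA) was in 1 of the 46 windows (2.17%, against 4.37% of all tested genes), and the CArG box bound by SRF was in 0 of 46 (against 1.05%). Of the 8 genes that fell, 1 held a CRE core (12.5%). Among the genes called without basal replicate 1, a CRE core was in 59.4% of 101 windows of those that rose and in 44.7% of 38 windows of those that fell, against 33.2% of 11745. Median GC content of the windows was 69% for the genes that rose and 65.7% for all tested genes. Both strands were searched, these shares were not tested, and a match says only that the letters are there. For 50 of the 54 called genes with a window, the start was within 500 bases of that of the most abundant transcript, and for NR4A1 it was not. The window of APOLD1, which held 1 CRE core, lay at an upstream start and not at 12785607, the start that carried its rise.

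Some inhibitors of signaling rose as well, SIK1 in the cAMP pathway and 5 of 18 tested inhibitors of ERK and G protein signaling (0.412% of all genes tested rose). SIK1, a salt-inducible kinase that PKA inhibits and that in turn restrains CREB coactivators, had 178, 249 and 252 normalized counts at basal and 1225, 1193 and 1290 with isoproterenol (log2 fold change 2.45, standard error 0.17, adjusted p = 2.2e-07, edgeR). SIK1B, a near-identical copy on the same chromosome 21, was assigned 109 to 269 and 710 to 789 normalized counts, and how reads were divided between the copies is uncertain. SIK1 was the only called gene among the 43 tested members of a list of 48 cAMP and PKA pathway genes (receptor, G protein, cyclases, phosphodiesterases, PKA subunits, anchoring proteins, CREB and its coactivators), whose median log2 fold change was 0.016. Of the 18 inhibitors of ERK and G protein signaling none fell, and the list median was 0.43 (0.52 without basal replicate 1, when 7 rose). RGS2, which speeds GTP hydrolysis on Gα subunits, had 133, 194 and 247 normalized counts at basal and 513, 551 and 515 with isoproterenol (log2 fold change 1.46, standard error 0.18, adjusted p = 0.00034, edgeR). RGS16, of the same family, rose by 0.69 and SPRY2, a Sprouty inhibitor of receptor tyrosine kinase signaling, by 0.47. RGS16 was not called without isoproterenol replicate 3 (adjusted p = 0.063), and SPRY2 was not called with offsets for GC content and length (0.38, adjusted p = 0.1) or without basal replicate 3, isoproterenol replicate 2 or isoproterenol replicate 3 (adjusted p from 0.056 to 0.094). The most abundant uncalled member was ERRFI1, at 0.21 (adjusted p = 0.52). DUSP4 was at 0.43 (adjusted p = 0.1), and without basal replicate 1 it was called at 0.47. SOCS3, which inhibits cytokine receptor signaling through JAK kinases, was outside these lists and rose from 68.7, 56.9 and 64.9 to 159, 161 and 195 normalized counts (log2 fold change 1.43, adjusted p = 0.00066, edgeR).

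Several factors that promote mRNA decay rose too. Of 8 tested, 5 rose, against 0.412% of all genes tested. All 8 had positive values, with a median log2 fold change of 0.53 (0.64 without basal replicate 1, when 7 were called). BTG2, an antiproliferative protein that recruits the CCR4-NOT deadenylase, had 1059, 995 and 1017 normalized counts at basal and 3980, 3945 and 4954 with isoproterenol, a 4.19-fold rise (log2 fold change 2.07, standard error 0.10, adjusted p = 3.7e-09, edgeR). TOB1, its relative, went from 1398, 1169 and 1403 to 2534, 2491 and 2766 normalized counts (log2 fold change 0.97, adjusted p = 2.8e-06, same test). The zinc-finger proteins ZFP36L1 and ZFP36L2, which bind AU-rich elements, rose by 0.80 and 0.49, and BTG1 by 0.47. BTG1 was not called with GC and length offsets (0.16, adjusted p = 0.71), and ZFP36L2 was not called without isoproterenol replicate 1 or 3 (adjusted p = 0.072 and 0.063). TOB2, ZFP36 and BTG3 were not called with all libraries (0.36, 0.54 and 0.52, adjusted p from 0.27 to 0.43). TOB2 and ZFP36 were called without basal replicate 1, at 0.49 and 0.88.

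Among 15 tested genes of growth arrest and stress, 4 rose and none fell, against 0.412% and 0.0515% of all genes tested. The median log2 fold change was -0.0048 (0.14 without basal replicate 1, when 7 rose and 1 fell). SGK1, a kinase related to AKT, rose from 190, 204 and 198 to 414, 381 and 336 normalized counts (log2 fold change 0.93, standard error 0.11, adjusted p = 0.00016, edgeR). GADD45B, a stress sensor upstream of p38, rose by 0.83, CDKN1B, the cyclin-dependent kinase inhibitor p27, by 0.53 and TRIB1, a pseudokinase, by 0.44. CDKN1B was not called without any 1 of the isoproterenol replicates (adjusted p from 0.052 to 0.095), and TRIB1 was not called without basal replicate 3 or without isoproterenol replicate 2 or 3 (adjusted p from 0.075 to 0.17). ATF4, the effector of the integrated stress response, had a log2 fold change of -0.51 that was called without basal replicate 1 (-0.51, adjusted p = 0.044) and not with it (adjusted p = 0.09).

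Some small GTPases and secreted matricellular proteins rose. Of 11 small GTPases tested, 3 rose, against 0.412% of all genes tested, with a list median of 0.45. GEM, a small GTPase that inhibits calcium channels, had 181, 210 and 154 normalized counts at basal and 601, 467 and 559 with isoproterenol (log2 fold change 1.58, standard error 0.17, adjusted p = 6.3e-05, edgeR). RHOB, an endosomal small GTPase, was abundant and rose from 4888 ± 575 to 7592 ± 62.8 normalized counts (mean ± SD, n = 3), a log2 fold change of 0.64. Of 12 tested targets of YAP and SRF, CTGF (CCN2) and CYR61 (CCN1), secreted regulators of adhesion and matrix, were the 2 that rose. CTGF went from 526, 321 and 350 to 1279, 1262 and 1073 normalized counts (log2 fold change 1.59, adjusted p = 1.2e-05, edgeR), and CYR61 from 934, 529 and 594 to 1646, 1635 and 1522 (1.22, adjusted p = 0.00023). In both, basal replicate 1 was the highest basal library, and the values without it were 1.84 and 1.51. The list median was -0.0027, with ACTG1 at -0.25 (adjusted p = 0.35) and SRF itself at -0.05 (adjusted p = 0.89). APOLD1, an early-response gene known from endothelial cells, rose from 347, 507 and 474 to 1544, 1424 and 1389 normalized counts (1.71, adjusted p = 2e-06, edgeR). Its annotated span begins 3.55 kb from CDKN1B on chromosome 12, the closest pair among the called genes. The start that carried its rise, at 12785607, lies further from CDKN1B. Secreted growth factors and cytokines had a positive median too, 0.52 over 15 genes, but none was called at all, and the most abundant, VEGFA, had 0.31 (adjusted p = 0.27, and 0.043 without basal replicate 1).

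Some metabolic genes responded. Of 26 tested genes of sterol and lipid synthesis, 2 rose, against 0.412% of all genes tested, and the median log2 fold change was 0.058. IDI1, an isomerase of the isoprenoid pathway, had 881, 1818 and 1624 normalized counts at basal and 2852, 2623 and 2671 with isoproterenol (0.91, adjusted p = 0.014, edgeR). INSIG1, which retains the sterol sensor SCAP in the endoplasmic reticulum, had 2436, 3780 and 3402 against 5128, 4855 and 5018 (0.64, adjusted p = 0.0078). Basal replicate 1 was the lowest library in both genes, and without it the changes were 0.66 and 0.48. IDI1 was not called without isoproterenol replicate 1 or 3 (adjusted p = 0.082 and 0.053). HMGCS1, which shares their regulation by sterols, had 0.20 (adjusted p = 0.57). In the glucose metabolism list, SLC2A3, the glucose transporter GLUT3, rose from 512, 632 and 920 to 1273, 1296 and 1737 normalized counts (1.06, adjusted p = 0.0027, edgeR), and TXNIP, which binds thioredoxin and restrains glucose uptake, fell from 545, 612 and 532 to 266, 288 and 265 (-1.04, standard error 0.10, adjusted p = 1.4e-05). The list had 16 tested genes with a median of -0.14. Called higher were 2 of them, 1 being PCK1, and 1 was called lower, against 0.412% and 0.0515% of all genes tested.

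Of 39 tested HOX and EVX genes, 2 rose, both from the HOXA cluster on chromosome 7, and the median was 0.033. EVX1 (27242700 to 27250493), a homeobox gene at one end of the cluster, was nearly silent at basal, with 9.37, 7.81 and 4.48 normalized counts, and had 51.0, 40.5 and 63.7 with isoproterenol (log2 fold change 2.82, standard error 0.52, adjusted p = 0.014, edgeR). It was not called without basal replicate 3 or isoproterenol replicate 3 (adjusted p = 0.062 and 0.064). HOXA5 (27141052 to 27143668) went from 266, 352 and 323 to 581, 623 and 535 normalized counts (0.89, adjusted p = 0.00099). The genes are 99 kb apart. HOXB9, the most abundant uncalled member, had 0.12 (adjusted p = 0.58). FOXQ1, a forkhead factor encoded in a single exon, rose from 45.8, 58.0 and 72.7 to 134, 121 and 135 normalized counts (1.14, adjusted p = 0.0057, edgeR). ARHGAP6, a GTPase-activating protein, was also called, but it had at most 2 counts in any basal library, so no fold is given, and it was the 1 gene of the 72 not called without basal replicate 1 (adjusted p = 0.057).

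**Figure D2:**
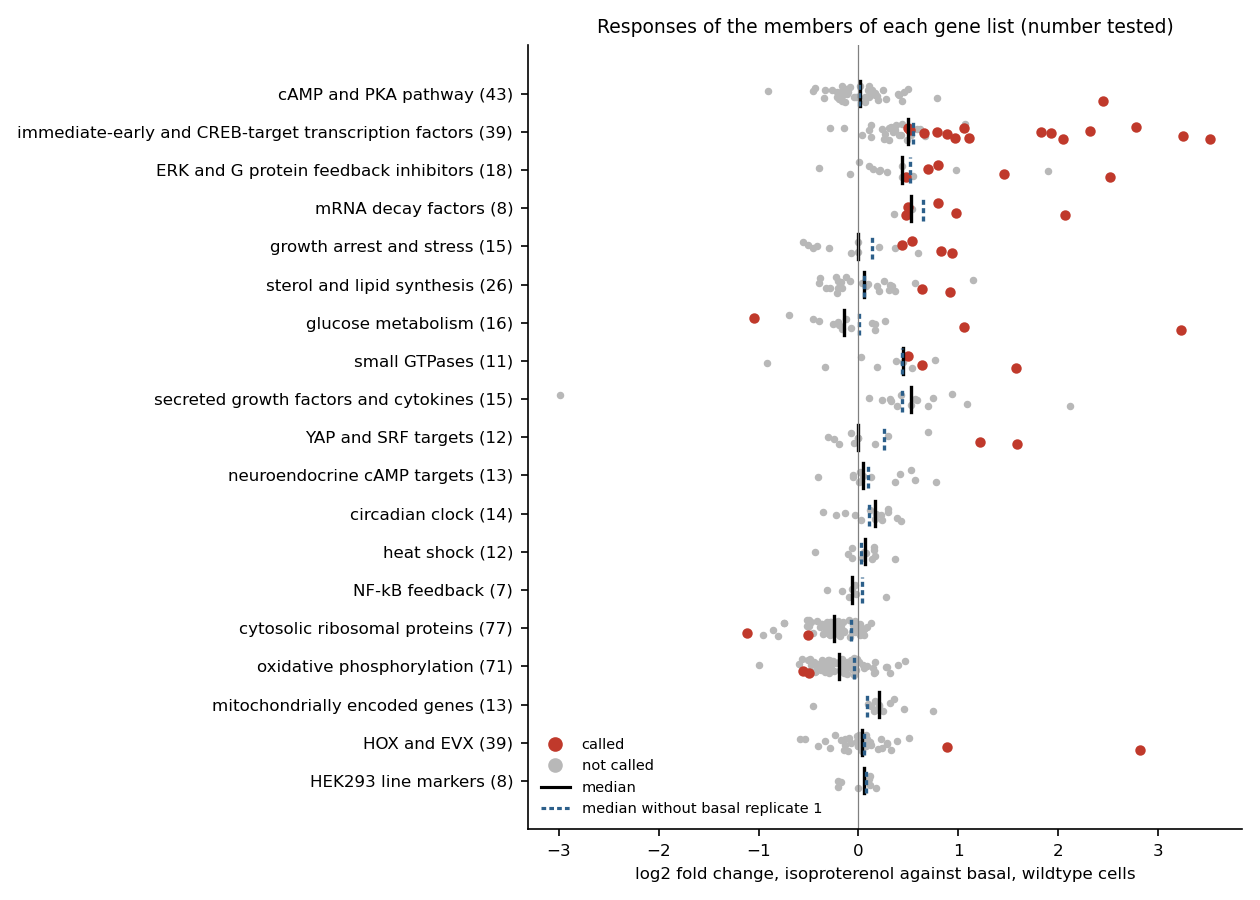
Log2 fold changes (x axis, isoproterenol against basal in wildtype cells) of the tested members of each gene list (rows, with the number tested), red where called, with the list median as a black line and the median without basal replicate 1 as a dashed blue line. The called members sit to the right in the transcription factor, inhibitor and mRNA decay rows, and the medians of ribosomal proteins (-0.24) and oxidative phosphorylation (-0.20) move to -0.075 and -0.049 without that library.

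Beside TXNIP, 7 genes fell, and 5 of the 8 lost their call when some single wildtype library was left out. Of the 7, RPS21 and RPS26 encode proteins of the small ribosomal subunit, COX7C a subunit of cytochrome c oxidase, ATP5MD a subunit of ATP synthase, TMEM258 a subunit of the oligosaccharyltransferase, COPS9 a subunit of the COP9 signalosome and SMPD1 acid sphingomyelinase. RPS21 had 14126, 6670 and 6715 normalized counts at basal and 3649, 3938 and 5076 with isoproterenol. Its log2 fold change of -1.12 (adjusted p = 0.027, edgeR) was -0.66 without basal replicate 1, where it remained called (adjusted p = 0.0044), and it was not called without isoproterenol replicate 1 or 2 (adjusted p = 0.19 and 0.17). TMEM258 had 1420, 1237 and 1174 against 709, 659 and 920 (-0.74, adjusted p = 0.0027), RPS26 7596, 6302 and 6205 against 4863, 4691 and 4664 (-0.50, adjusted p = 0.0038), and COX7C 6836, 6009 and 5861 against 4143, 4245 and 4930 (-0.49, adjusted p = 0.0079). RPS26, TMEM258 and TXNIP stayed called without any 1 of the wildtype libraries. COX7C was not called without isoproterenol replicate 1 or 2 (adjusted p = 0.074 and 0.07). ATP5MD (-0.55) was called without basal replicate 1 but with no other library left out (adjusted p from 0.053 to 0.19), SMPD1 (-0.57) was not called without basal replicate 2 or isoproterenol replicate 1 or 3 (adjusted p from 0.058 to 0.19), and COPS9 (-0.78) was not called without basal replicate 3 or isoproterenol replicate 1 or 2 (adjusted p from 0.11 to 0.28). With GC and length offsets, SMPD1 and COPS9 were not called either (adjusted p = 0.11 and 0.084).

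Ribosomal protein and oxidative phosphorylation genes had small negative medians once basal replicate 1 was set aside, but most members stayed negative. Of 77 cytosolic ribosomal proteins tested, 2 fell and 10 had a positive log2 fold change, with a median of -0.24. Without basal replicate 1, which had the highest ribosomal share of counts, the median was -0.075 and 18 were positive. In that fit 8 were called lower, among them RPL34 at -0.33 and RPS20 at -0.28. The list of 71 oxidative phosphorylation genes had a median of -0.20 with all libraries and -0.049 without that one, with 2 and 3 called lower. Positive values were found in 13 and 23 of them. Over all genes tested, 0.0515% were called lower with all libraries and 0.272% without basal replicate 1. The 13 genes of the mitochondrial genome had medians of 0.21 and 0.087, with none called. MTRNR2L8, called at 0.63, is a nuclear copy of the mitochondrial 16S rRNA gene, so its reads cannot be told apart from that gene's with certainty, and it was not called without basal replicate 2, isoproterenol replicate 2 or isoproterenol replicate 3 (adjusted p from 0.058 to 0.17).

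**Figure D3:**
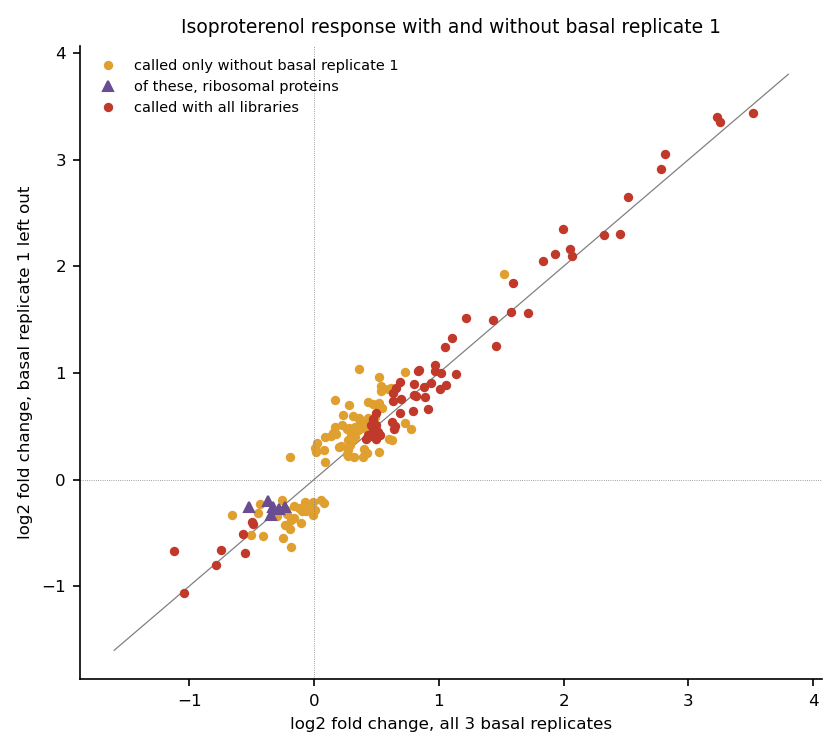
Log2 fold change with all 3 basal replicates (x axis) against that without basal replicate 1 (y axis), for the 72 called genes (red) and the genes called only without that library (orange, ribosomal proteins as purple triangles), leaving out genes under 3 counts in every library of a group. Most points lie along the diagonal, and RPS21 moves from -1.12 to -0.66.

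Leaving basal replicate 1 out added 105 genes, 70 higher and 35 lower, with median log2 fold changes of 0.48 and -0.30. Some were members of the lists. Among the transcription factors JUND, IER2 and KLF4 were called higher (0.46 to 0.72), and among clock genes PER1 (0.51) and BHLHE40 (0.58). These additions were chosen after their values were seen, and the GC content of the excluded library moves with them.

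In several genes the estimated shares of the transcription starts differed between the groups. Transcripts whose 5′ ends followed each other by at most 500 bases were linked and added up as one start, which can therefore span more than that, and a start's share is its part of the gene's normalized counts. Among the called genes outside the 6, 13 had at least 2 starts with a share of 10% or more, and in 12 of their 30 starts the shares of the isoproterenol libraries lay outside those of the basal libraries, against 11.9% of 7644 starts over all tested genes. In 10 of them the mean share also moved by at least 10 points (6.21% over all). With 3 against 3 libraries an exact two-sided permutation test cannot give less than p = 0.1, so these are descriptions. Salmon divides reads among transcripts that share exons, and counts of single starts are less certain than those of the gene.

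ZNF331, a KRAB zinc-finger gene on chromosome 19, doubled as a whole, from 985, 1093 and 959 to 2210, 1942 and 2003 normalized counts (log2 fold change 1.02, adjusted p = 4.6e-06, edgeR), but not from each start. The group of starts between 53554499 and 53555487 had 0, 17.7 and 27.1 normalized counts at basal and 844, 591 and 786 with isoproterenol, and its share went from 1.48% ± 1.42 to 35.9% ± 4.81 (mean ± SD, n = 3). The ZNF331 sequence printed above lies inside this group of starts, directly before the start of the transcript that gained the most counts. The start between 53537253 and 53538788 had 99.5, 53.8 and 33.6 against 426, 550 and 515. The most upstream start, near 53520948, had 551, 582 and 539 against 662, 627 and 582, groups that all but touched. ZNF331-203, from the start at 53536323, had less in each isoproterenol library, 276, 174 and 121 against 334, 440 and 359.

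CREM, which encodes a relative of CREB, was not called as a gene (log2 fold change 0.44, adjusted p = 0.11, edgeR). Its internal start at 35195127 to 35195147 of chromosome 10, which gives short transcripts of the kind known as ICER, inducible repressors of cAMP-driven transcription, had 202, 351 and 352 normalized counts at basal and 677, 715 and 596 with isoproterenol. The upstream start near 35126791 had 347, 326 and 385 against 455, 274 and 425, which overlapped. The internal start's share went from 34.1% ± 7.75 to 56.0% ± 6.22. APOLD1 gained through the start of its short transcript, with 345, 320 and 228 against 1453, 1145 and 1050 normalized counts, while the long one had 2.1 to 247 and 91.6 to 338, and the shares overlapped. In NR4A1, the start near 52051402 had 2970, 1239 and 2104 against 9183, 8732 and 9869, and NR4A1-213, from 52041805, had 403 to 687 and 0 to 184.

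**Figure D4:**
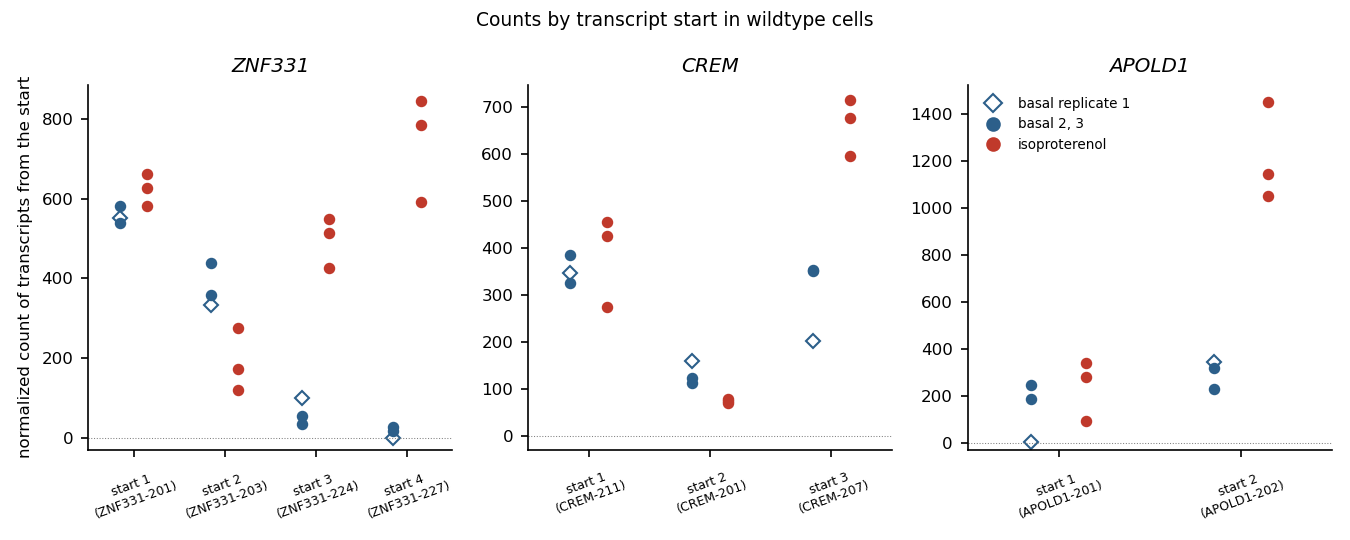
Normalized counts of the transcripts from each start of ZNF331, CREM and APOLD1 (x axis, in genome order and named by the leading transcript) in the 6 wildtype libraries. In ZNF331 starts 3 and 4 rise to between 426 and 844 while start 2 is lower, in CREM start 3 lies above the others with isoproterenol, and in APOLD1 start 2 carries the rise.

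Other lists that cAMP or stress can act on showed no called member. The 14 clock genes had a median log2 fold change of 0.17, with PER1 at 0.23 and BHLHE40 at 0.43 (adjusted p = 0.57 and 0.1, edgeR). The 13 tested neuroendocrine cAMP targets had a median of 0.047, and CGA, the glycoprotein hormone α subunit and the most abundant of them at 10239 ± 295 normalized counts at basal, had -0.05 (adjusted p = 0.86). The 12 heat shock genes had 0.066 and the 7 NF-κB feedback genes -0.060. Of the signaling components, GNAS (Gαs) had -0.11 and PRKAR1A, a regulatory subunit of PKA, 0.17 (adjusted p = 0.71 and 0.5, edgeR).

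The genes that rose were compact. Their median span in the genome was 6.7 kb, against 31.8 kb over all genes tested, and 59.4% of them spanned less than 10 kb, against 21.3%. Their most abundant transcript had a median of 3 exons, against 8, and 15.6% had a single exon, against 5.25%, while the median transcript length was 2716 bases, against 2798. All 64 were protein coding, as were 94.1% of the genes tested. Their median basal level was 651 normalized counts, against 476 over all genes. The 8 genes that fell spanned a median of 4.37 kb and had short transcripts, with a median of 616 bases. Without basal replicate 1 the 133 genes that rose had a median span of 8.59 kb and 4 exons. The 43 that fell had a median span of 24.2 kb and a median transcript of 2339 bases, against 31.6 kb and 2781 bases over all genes tested. These 43 were all of the 8 and 35 further genes, so the compactness described the 8 and not the larger set. These medians were not tested.

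In Gαs KO cells, GNAS had 1264 ± 96.5 normalized counts at basal, against 25207 ± 7249 in wildtype cells, and none of the 72 genes was called. In that line 0 of all genes tested (0%) were called by edgeR, 164 had an unadjusted p under 0.05, 5 of them among the 72, and DESeq2's Wald test called 9, of which 0 were among the 72. The 64 genes that rose in wildtype cells had a median log2 fold change of 0.037 there, with values from -1.28 to 0.77, and the 8 that fell had a median of 0.041. NR4A2 had 0.10, SIK1 0.15, BTG2 -0.01 and TXNIP -0.005. The difference in response from wildtype cells was called for 25 of the 72 genes, negative for 24 of those that rose (0.155% of all genes tested had a negative difference called) and positive for TXNIP (0.00644% had a positive one). All 24 negative and the 1 positive difference called over the whole table were among the 72. Wildtype libraries entered both the call and the difference, so this overlap is a description and not separate support. Without basal replicate 1 the difference was called for 49 of the 72.

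In β-arrestin1/2 KO cells ARRB2 had 397 ± 48.7 normalized counts at basal, against 1892 ± 546 in wildtype cells, and ARRB1 786 ± 54.9 against 948 ± 268, a difference smaller than the wildtype SD. Of the 64 genes that rose in wildtype cells 58 were called higher (0.953% of all genes tested were) and none lower. Their median log2 fold change was 1.06 there. Of the 8 that fell in wildtype cells, TXNIP was called lower (-1.54; 0.174% of all genes tested were called lower) and 4 were called higher, namely COX7C, RPS26, ATP5MD and TMEM258 (0.46 to 0.89). The difference in response was called for 14 of the 72 genes, all positive (0.142% of all genes tested had a positive and 0.0258% a negative difference called). This count is a description too, because the wildtype libraries also made the calls. Among those that rose in both lines NR4A3 had the largest difference, with log2 fold changes of 2.32 before and 4.37 after loss of the β-arrestins. The other 6 were RPS21, RPS26, COX7C, ATP5MD, COPS9 and TMEM258, each negative in the first line and positive in the second. CDKN1B, IER3 and SMPD1 had 0.09, 0.30 and 0.05 there (adjusted p from 0.68 to 0.92), and the tests of their differences from wildtype cells did not pass (adjusted p from 0.21 to 0.63). Without basal replicate 1 the difference was called for 29 of the 72, and without isoproterenol replicate 2 for 9.

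**Figure D5:**
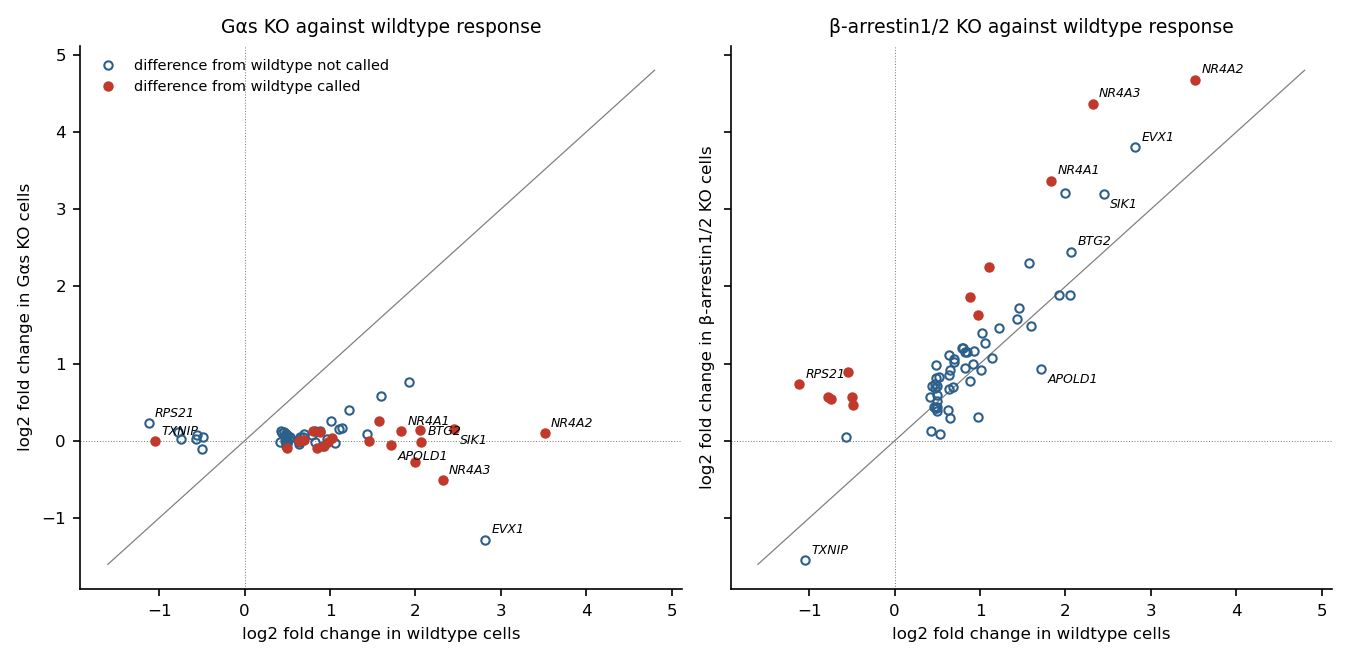
Log2 fold change in wildtype cells (x axis) against that in Gαs KO (left) and β-arrestin1/2 KO cells (right) for the genes called in wildtype cells outside the 6 and without ARHGAP6, filled where the difference from wildtype was called, with the diagonal of equal response. On the left the genes that rose have a median of 0.037, and on the right NR4A2, NR4A3 and NR4A1 lie above the diagonal.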

How the data were processed

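RNA was sequenced in 3 wildtype basal and 3 wildtype isoproterenol samples, and from 12 libraries of Gαs KO and β-arrestin1/2 KO cells. Per the labels and the study's methods, poly(A) RNA was sequenced on an Illumina instrument, and Salmon 1.7.0 gave the expected counts that the authors deposited, which are estimates per transcript and not normalized, for 184844 transcripts and 18 libraries, with 0 columns unused. The submitters' processing notes name GRCh38 and DESeq2. The transcript index and whether counting used strand are not given in the sources used here.

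Transcripts were joined by Ensembl identifier to GENCODE release 29 (GRCh38). Of these, 161838 matched 34287 genes, 23920 with a count, and 92.9 to 93.8% of a library's counts were kept. Totals ran from 17908597 to 25019834. Gene sums were rounded, scaled by TMM and filtered with filterByExpr, which left 15530 genes. edgeR 4.0.16 (R 4.3.3) fitted a quasi-likelihood model with 1 coefficient per group to all 18 libraries. Adjusted p is Benjamini-Hochberg over all genes tested, and a call is an adjusted p under 0.05. Standard errors were derived from the fold change and its F statistic. Shares and tables used Python 3.11.15, pandas 2.3.3 and scipy 1.17.1. Per the sample titles, the libraries of a group are biological replicates.

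Genes named are the 20 with the largest rise and the 10 with the smallest p, all that fell, called members of the lists and up to 4 abundant uncalled members of each, outside the 6 genes. The members and lists were chosen with earlier results of these data known. The pipeline was tested on simulated data. Alternatives were DESeq2's size factors, upper-quartile scaling, DESeq2 1.42.0's Wald test, other count filters, a replicate block, each wildtype library left out, lowess offsets for GC content and length (span 0.3), unmatched transcripts kept, only wildtype libraries, and stricter thresholds. Same-numbered wildtype libraries did not deviate together (correlations of their departures from the group means -0.0994, 0.0040 and -0.0939), so libraries were treated as unpaired. No 2 wildtype libraries of the same group agreed within sampling noise (chi-square per gene from 5.56), and the KO libraries were not compared in this way. Results for a few genes are not reported here.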

Additional observations from a re-analysis of the deposited data

Results flagged for a closer look

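The response to isoproterenol differed from that of wildtype cells, by the test of the difference itself (edgeR's quasi-likelihood test, adjusted p under 0.05), for the following genes called in wildtype cells. Wildtype libraries entered both the call and the difference, so these values are descriptions. In Gαs KO cells the log2 difference was -3.42 for NR4A2, -2.83 for NR4A3 and -1.71 for NR4A1. It was -2.30 for SIK1 and -2.28 for its copy SIK1B. FOSB had -1.92, ATF3 -0.77, ZNF331 -0.98 and CITED2, a CBP-binding coregulator, -0.69. Among mRNA decay factors it was -2.08 for BTG2, -0.99 for TOB1 and -0.67 for ZFP36L1. APOLD1 had -1.77, RGS2 -1.46, GEM -1.32, SGK1 -1.01, FAM43A -0.93 and RHOB -0.64. TXNIP, which fell in wildtype cells, had 1.04.

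In β-arrestin1/2 KO cells the difference was 2.05 for NR4A3, 1.54 for NR4A1 and 1.16 for NR4A2, and 1.14 for CSRNP1, 0.98 for ATF3 and 0.66 for TOB1. Among genes that fell in wildtype cells it was 1.86 for RPS21, 1.44 for ATP5MD, 1.35 for COPS9, 1.28 for TMEM258, 1.07 for RPS26 and 0.95 for COX7C.

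Transcripts with no gene in the annotation were not part of the comparisons. Kept as features of their own, 6940 of them were tested and 4 were called, 3 higher and 1 lower, while the control response in Gαs KO cells had no gene called.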

How the results depend on the processing

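With all libraries 64 genes were higher and 8 lower. The main dependence was on basal replicate 1 and on the spread. Counts of higher and lower genes were 121 and 66 with DESeq2's Wald test, 159 and 67 with GC and length offsets, and 155 and 61 with those offsets and a replicate block. With basal replicate 1 left out they were 215 and 100 by DESeq2, 131 and 35 with a replicate block and 144 and 56 with offsets, the block and offset fits without that library having been added after seeing the data. The 6 wildtype libraries alone gave 12 and 1, and without basal replicate 1 they gave 73 and 15. Unmatched transcripts kept gave 5 lower. An adjusted p under 0.01 left 4 lower, and a change of 1 or more on the log2 scale left 26 and 2. Leaving out 1 wildtype library at a time gave 52 (without isoproterenol replicate 1) to 133 (without basal replicate 1) higher and 4 to 43 lower, with 43, 34 and 25 without basal replicates 1, 2 and 3 and 4 without isoproterenol replicate 1. The replicate block alone gave 65 and 8, and the same numbers share no more than a number here. Of the 72 genes, 72 kept their sign in all 20 alternatives in which they had a value, 47 stayed called without any 1 library, and 12 stayed called in every alternative.

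The response of the 72 genes differed in Gαs KO cells for 25 of them, and for 51 with DESeq2, 43 with offsets, 42 with offsets and the block, 56 with DESeq2, 49 with the block and 50 with offsets without basal replicate 1, and for 19 to 49 (without basal replicate 1) with 1 library left out. In β-arrestin1/2 KO cells it differed for 14, and without basal replicate 1 for 35 with DESeq2, 32 with the block and 24 with offsets, and for 9 (without isoproterenol replicate 2) to 29 (without basal replicate 1) with 1 library left out. The cause of these shifts was not tested. The summaries of promoters and gene structure without basal replicate 1 were added after seeing the data. At 3 libraries a group, scarce genes had wide errors, such as a standard error of 0.52 for EVX1.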
